A study of Homo sapiens with 18 samples.

Results

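The results below set PC9 against H1650 in the libraries labelled Tr-BrM control: 3 libraries of PC9 and 3 of H1650, chosen by their labels alone, of 18 libraries in the series. PC9 and H1650 are established human lung cancer cell lines that carry an activating mutation of EGFR, and the series sequenced poly-A RNA of derivatives of each line that metastasised to brain. Each line has 3 groups of 3 libraries: condition Tr-BrM with control treatment, condition BrM with control treatment, and condition Tr-BrM with the treatment labelled S100A9-inh. The labels do not say what Tr stands for, how the derivatives were made, whether each is 1 clone, or whether the replicate libraries are from different cultures. P-values therefore measure only the spread between these libraries, which may be technical. Each line was deposited as a table of its own, so that line and table are one factor, and a difference between the lines cannot be told apart from a difference in how the 2 tables were made.

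An EGFR-mutant lung adenocarcinoma depends on signals that the mutant receptor sends through the MAPK and PI3K pathways, and drugs that block the receptor are evaded through other receptor kinases, through a shift of cell state, or through metabolism and detoxification. Type I interferon acts through its receptor on a complex that holds STAT2 and IRF9 and binds the interferon-stimulated response element (ISRE) and switches on antiviral genes. NRF2, held back by KEAP1, binds the antioxidant response element (ARE) and switches on genes that detoxify electrophiles and supply NADPH and glutathione. S100A8 and S100A9 form calprotectin, a secreted calcium-binding protein that signals through AGER and TLR4. ALDH1A enzymes make retinoic acid, which acts through nuclear retinoic acid receptors.

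The 6 libraries held 19.41, 20.6 and 19.63 M joined counts in PC9 and 18.84, 26.49 and 20.04 M in H1650. Levels are given as CPM, a gene's counts scaled to a common library size by TMM, and a mean ± SD is over the 3 libraries of a group. A gene was called higher or lower in PC9 when edgeR's quasi-likelihood test gave a Benjamini-Hochberg adjusted p under 0.05 and the log2 fold change, PC9 minus H1650, was at least 1 in size. Of 19076 genes tested, 4009 were higher in PC9, or 21% of those tested, and 5015 were lower, or 26.3%. Every count of genes below is to be read against these shares. The median log2 fold change over all tested genes was -0.08, and scaling by library size alone moved it by -0.26. The libraries of the 2 lines did not overlap for 15807 tested genes, or 82.9%. Every gene described below as higher or lower had libraries that did not overlap between the lines, and an adjusted p of 6.27e-05 at most.

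The epithelial label held in both lines. EPCAM, an epithelial surface protein, averaged 357 ± 9.79 CPM in PC9 and 226 ± 3.16 CPM in H1650. The simple keratin KRT8 stood at 11898 CPM in PC9 and 4078 CPM in H1650. The lung lineage markers NKX2-1 and SFTPB were near 0 in both lines: NKX2-1, the transcription factor of lung adenocarcinoma, averaged 0.145 CPM in PC9 and 0.26 CPM in H1650, and the surfactant gene SFTPB averaged 0.109 CPM in PC9 and 0.0301 CPM in H1650. The wider list of alveolar lineage genes was not near 0, with sums of 712 to 726 CPM in PC9 and 797 to 811 CPM in H1650. Neither NKX2-1 nor SFTPB passed the filter on low counts.

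Some of the largest differences belonged to a whole table and not to the Tr-BrM state. In all, 62 tested genes were under 0.3 CPM in every one of the 9 H1650 libraries and at 5 CPM or more in every PC9 library, and 102 were the reverse. Several of them are genes that nearly every cell uses. UBE2M, which carries the ubiquitin-like protein NEDD8, is listed at 0 CPM in PC9 and 153 CPM in H1650. DDX39B, an RNA helicase of messenger RNA export, had 79.1 CPM in PC9 and 0 CPM in H1650, and TAF9, a subunit of the general transcription factor TFIID, had 56.3 CPM in PC9 and 0 CPM in H1650. Another gene on the same strand overlaps 53.3% of the protein-coding genes off in the H1650 table, 20.7% of those off in the PC9 table and 31.8% of all tested protein-coding genes. Between TRIM27 and ZBTB9, the stretch of chromosome 6 that holds the MHC (chr6:28903002-33457548 in GRCh38), 84 of 142 tested genes were higher in PC9, or 59.2%, 11 of them off in every H1650 library, against 21.7% of 807 tested genes on the rest of the chromosome. Among genes described further on, TAP2, HSPA1A, NLRP2, MUC4 and MUC20 were off in the H1650 table by this measure, and IFI27, IFI44L, RSAD2, COL3A1, CADM1, ITGA4, FGF2, DSC3, DSG3 and PKP1 in the PC9 table. The part that gene models or counting had in these values was not tested.

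H1650 libraries also held low levels of genes that mark other cells of brain and blood. The count tables do not tell whether such reads came from the tumour cells, from other human cells or from host RNA aligned to human genes. Of 15 tested markers of microglia and myeloid cells, 13 were lower in PC9, and their summed level ran from 17.4 to 18.4 CPM in PC9 and from 132 to 142 CPM in H1650. In BrM control that sum ran from 34.8 to 36 CPM in PC9 and from 93.8 to 99.0 CPM in H1650. In PC9, 9 listed myeloid markers had no count, among them C1QA, C1QB, C1QC, TYROBP, FCER1G, FCGR3A and LYZ. C1QC, a complement chain made by macrophages and microglia, had no count in PC9 and 9.79 ± 1.83 CPM in H1650. CSF1R, the receptor that macrophages need for survival, averaged 8.11 ± 0.657 CPM in PC9 and 72 ± 2.8 CPM in H1650. For fibroblast and pericyte markers, 9 of 12 were lower in PC9, and the sum ran from 17.3 to 20.5 CPM in PC9 and from 158 to 179 CPM in H1650, of which COL3A1, a fibrillar collagen of connective tissue, averaged 0.144 ± 0.124 CPM in PC9 and 119.7 ± 5.47 CPM in H1650.

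Of 12 tested astrocyte markers, 7 were lower in PC9 and 2 higher, and 5 had no count in PC9. Their sum ran from 255 to 267 CPM in PC9 and from 295 to 309 CPM in H1650 in Tr-BrM control, and in BrM control from 164 to 171 CPM in PC9 and from 70.2 to 81.8 CPM in H1650, the opposite order. GFAP, the intermediate filament of astrocytes, averaged 0.163 ± 0.0491 CPM in PC9 and 58.7 ± 9.98 CPM in H1650. Neuron markers summed to between 28.9 and 29.2 CPM in PC9 and between 66.8 and 70.5 CPM in H1650, oligodendrocyte markers to between 164 and 175 CPM in PC9 and between 215 and 218 CPM in H1650, and T, NK and B cell markers to between 1.8 and 2.09 CPM in PC9 and between 8.21 and 10.1 CPM in H1650. Of 10 tested endothelial markers, 6 were lower in PC9 and 2 higher, while their sum was higher in PC9, at 91.4 to 93.2 CPM in PC9 and 49.2 to 56.2 CPM in H1650. The neuronal RBFOX3, the oligodendrocyte MOG and the microglial P2RY12 and TMEM119 were too low to test. The part of other cells in the gene groups that follow was not tested, and in bulk RNA fewer cells of a type and less RNA per cell cannot be told apart.

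**Figure D1:**
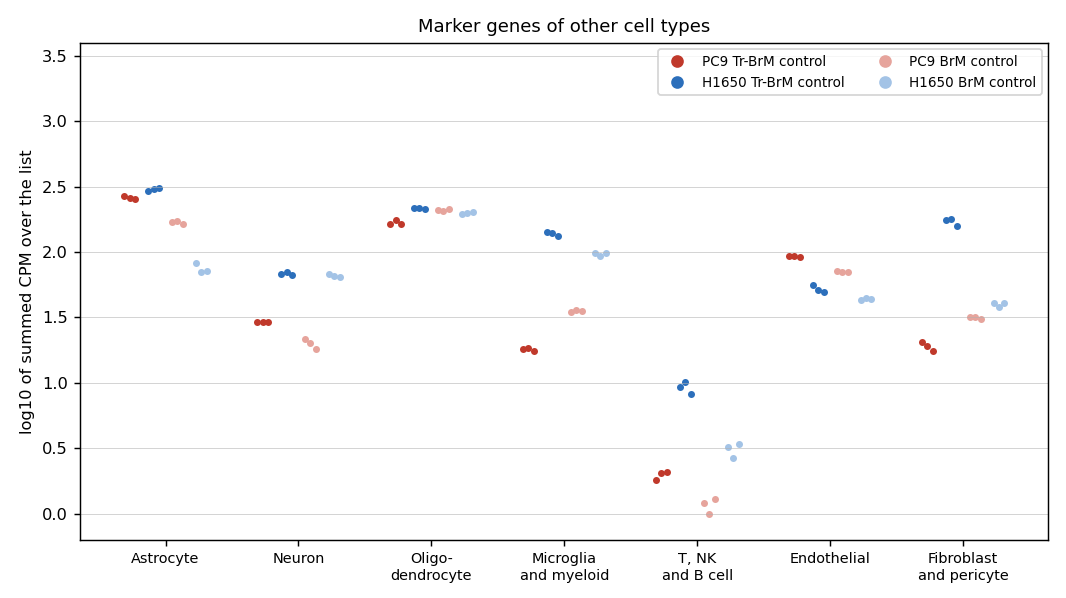
Summed CPM (log10 axis) of each list of marker genes of other cell types in single libraries, for PC9 and H1650 in Tr-BrM control and BrM control, 3 libraries each. The myeloid sum of 132 to 142 CPM in H1650 Tr-BrM control lay above the 17.4 to 18.4 CPM of PC9, and the astrocyte sums were in the opposite order in the 2 states.

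Most genes of the type I interferon response were lower in PC9. Of 48 tested members, 39 were lower in PC9 and 4 were higher, against 26.3% and 21% of all tested genes, and the median log2 fold change was -3.10 against -0.08 over all genes. Promoters are shown for the 3 members with the largest fold changes among those lower in PC9 whose promoter holds the ISRE. Each is the 250 bases before the gene's first RefSeq start (GRCh38.p14), 5′ to 3′ on the gene's strand, with matches to GAAANNGAAA on either strand in capitals: IFI44L at chr1:78620198-78620447 on the plus strand, IFI27 at chr14:94110486-94110735 on the plus strand and IFI44 at chr1:78649539-78649788 on the plus strand.
IFI44L: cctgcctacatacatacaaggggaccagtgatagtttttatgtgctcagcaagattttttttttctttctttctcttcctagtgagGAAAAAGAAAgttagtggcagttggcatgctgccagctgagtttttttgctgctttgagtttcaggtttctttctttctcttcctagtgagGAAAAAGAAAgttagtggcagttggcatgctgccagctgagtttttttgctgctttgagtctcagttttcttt
IFI27: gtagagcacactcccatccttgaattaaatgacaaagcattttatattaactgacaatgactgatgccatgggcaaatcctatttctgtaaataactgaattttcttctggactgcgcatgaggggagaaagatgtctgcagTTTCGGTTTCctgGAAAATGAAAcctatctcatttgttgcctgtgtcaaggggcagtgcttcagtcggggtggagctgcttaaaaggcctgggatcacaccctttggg
IFI44: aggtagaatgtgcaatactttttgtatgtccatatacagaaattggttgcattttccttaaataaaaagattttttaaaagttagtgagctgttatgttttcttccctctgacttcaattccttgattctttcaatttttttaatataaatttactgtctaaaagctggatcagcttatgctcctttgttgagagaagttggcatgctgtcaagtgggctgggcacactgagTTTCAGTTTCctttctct
The letters GAAANNGAAA were found in 21 of the 36 interferon list promoters in the RefSeq table, or 58.3%, and in 839 of all 27305 promoters, or 3.07%. Such a match describes the sequence and says nothing of binding in these cells.

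IFI27, a mitochondrial protein strongly induced by interferon, had 0.281, 0.158 and 0.22 CPM in PC9 and 529, 505 and 501 CPM in H1650. The H1650 libraries lay close together and far above PC9, and the log2 fold change was -11.16 ± 0.10, the error here and after every log2 fold change being its standard error (edgeR adjusted p = 2.25e-47). IFI6, an interferon-induced inhibitor of apoptosis and of flavivirus replication, had 3.83, 4.69 and 2.81 CPM in PC9 and 1561, 1504 and 1516 CPM in H1650, a log2 fold change of -8.65 ± 0.07. IFI44L had no count in the 3 PC9 libraries and 31.6 ± 2.93 CPM in H1650, at least 581-fold lower in PC9 when the PC9 total is set to 3 counts. IFI44, its neighbour and paralogue, had 0.0543 CPM in PC9 and 73.3 CPM in H1650, from 3 counts in PC9.

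Effectors of antiviral defence were lower in PC9. MX1, a GTPase that traps viral nucleocapsids, averaged 5.35 ± 0.806 CPM in PC9 and 381 ± 8.63 CPM in H1650. IFIT1, which binds viral RNA lacking cap methylation, averaged 0.298 ± 0.332 CPM in PC9 and 158 ± 11.8 CPM in H1650. RSAD2, which makes a chain-terminating nucleotide, averaged 0.0188 CPM in PC9 and 39.1 CPM in H1650, from 1 count in PC9. ISG15, a ubiquitin-like modifier, averaged 10.1 ± 1.38 CPM in PC9 and 215 ± 19.3 CPM in H1650, and BST2, which tethers budding virions, averaged 3.08 ± 0.54 CPM in PC9 and 376 ± 15.2 CPM in H1650. In each of these genes every H1650 library was above every PC9 library.

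The signalling components differed too. STAT2 averaged 13.4 ± 0.991 CPM in PC9 and 123 ± 3.49 CPM in H1650 and was lower in PC9. IRF9, its DNA-binding partner, averaged 0.894 CPM in PC9 and 0 CPM in H1650, but it was listed with 0 counts in all H1650 libraries, so its call as higher in PC9 carries the same limit as the other genes off in a whole table. The other members higher in PC9 were LGALS3BP, a secreted glycoprotein, at 668 ± 7.23 CPM in PC9 and 174 ± 3.76 CPM in H1650, IRF7, the factor that amplifies interferon transcription, at 6.49 ± 0.711 CPM in PC9 and 1.32 ± 0.457 CPM in H1650, and CGAS, the sensor of cytosolic DNA, at 16.9 ± 0.95 CPM in PC9 and 7.82 ± 0.833 CPM in H1650. The call for CGAS was lost under scaling by library size alone and in a test against a fold of 2.

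Interferon genes were also lower in PC9 in the BrM control libraries, where 43 members were lower and 2 higher, against 24.3% and 21% of all tested genes there, with a median log2 fold change of -3.78. IFI27 there averaged 0.105 CPM in PC9 and 509.7 CPM in H1650, and MX1 averaged 2.55 CPM in PC9 and 624 CPM in H1650. The difference between the lines moved between the states for 25 members: in 21 the log2 fold change was more positive in Tr-BrM than in BrM by the interaction test, which called 9.76% of all tested genes so, and in 4 it was more negative, against 12.4% of all. IFIT2, for example, stood at 2.47 CPM in PC9 and 91.7 CPM in H1650 in Tr-BrM and 4.12 CPM in PC9 and 398 CPM in H1650 in BrM.

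Genes of antigen presentation were split. Of 20 tested genes of MHC class I presentation, 3 were higher in PC9, 3 were lower, and the median was 0.17, a sign that changed under library size alone and without the genes from TRIM27 to ZBTB9. B2M, the light chain of every class I molecule and located outside that stretch, had 226, 231 and 223 CPM in PC9 and 991, 907 and 920.1 CPM in H1650, and no PC9 library reached an H1650 library. Its log2 fold change was -2.05 ± 0.04. Inside the stretch, HLA-C averaged 496 ± 19.4 CPM in PC9 and 634 ± 19.1 CPM in H1650, and TAP1, a subunit of the peptide transporter, averaged 34.1 ± 1.68 CPM in PC9 and 58.6 ± 0.898 CPM in H1650. HLA-C and TAP1 were not called, although TAP1 was called lower in PC9 under library size alone. TAP2, the other subunit, stood at 27.1 CPM in PC9 and 0.0746 CPM in H1650 and was off in the H1650 table. HLA genes differ in sequence between people and lines and resemble each other, so that reads can be lost or split, and their values are uncertain. Of 11 tested genes of MHC class II presentation, 6 were lower in PC9 and 2 higher, with levels up to 24 CPM for CD74, the invariant chain, in H1650 and 0.712 CPM in PC9. Class II genes are also made by myeloid cells, whose markers were low but higher in H1650, as given above.

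Most genes of a list of NRF2, its inhibitor KEAP1, NRF2 targets and aldo-keto reductases were higher in PC9. Of 30 tested members, 23 were higher in PC9, against 21% of all genes, and 1 was lower, with a median log2 fold change of 1.98. Promoters are shown for the 3 members with the largest fold changes among those higher in PC9 whose promoter holds the ARE, again the 250 bases before the first RefSeq start (GRCh38.p14), 5′ to 3′ on the gene's strand, with matches to TGACNNNGC on either strand in capitals: GPX2 at chr14:64942746-64942995 on the minus strand, GCLM at chr1:93909431-93909680 on the minus strand and ME1 at chr6:83431052-83431301 on the minus strand.
GPX2: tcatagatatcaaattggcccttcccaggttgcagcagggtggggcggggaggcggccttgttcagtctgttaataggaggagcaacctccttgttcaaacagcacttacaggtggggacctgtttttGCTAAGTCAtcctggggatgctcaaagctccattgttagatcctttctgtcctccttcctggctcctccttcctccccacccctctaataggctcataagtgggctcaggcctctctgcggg
GCLM: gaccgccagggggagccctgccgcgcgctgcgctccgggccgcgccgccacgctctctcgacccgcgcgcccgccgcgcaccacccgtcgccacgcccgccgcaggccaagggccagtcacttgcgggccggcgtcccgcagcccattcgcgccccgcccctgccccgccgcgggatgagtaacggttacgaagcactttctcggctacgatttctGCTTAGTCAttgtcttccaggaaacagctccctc
ME1: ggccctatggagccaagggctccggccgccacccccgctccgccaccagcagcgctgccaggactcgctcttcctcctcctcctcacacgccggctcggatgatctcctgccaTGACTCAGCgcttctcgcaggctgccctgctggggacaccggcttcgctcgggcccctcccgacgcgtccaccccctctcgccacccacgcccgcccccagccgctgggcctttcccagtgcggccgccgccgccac
The letters TGACNNNGC were found in 6 of the 22 list promoters in the RefSeq table, or 27.3%, and in 3013 of all 27305, or 11%.

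Aldo-keto reductases, which reduce aldehydes, ketones and lipid peroxidation products, showed some of the widest gaps in the list. AKR1B10 had 1192, 1229 and 1208 CPM in PC9 and 0.578, 0.546 and 0.316 CPM in H1650, and the 3 PC9 libraries lay within a narrow band far above H1650. Its log2 fold change was 11.27 ± 0.07 (edgeR adjusted p = 1.78e-52). AKR1C1 averaged 759.6 ± 7.86 CPM in PC9 and 0.708 ± 0.54 CPM in H1650, AKR1C2 averaged 658 ± 12.5 CPM in PC9 and 0.178 ± 0.037 CPM in H1650, and AKR1C3 averaged 282 ± 7.04 CPM in PC9 and 0.335 ± 0.027 CPM in H1650. The AKR1C genes are close copies, and reads can be split between them, but all averaged under 1 CPM in H1650. AKR1B1, which converts glucose to sorbitol, averaged 2749 ± 80.7 CPM in PC9 and 145 ± 3.58 CPM in H1650.

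Enzymes of thiol and quinone reduction were among the members higher in PC9. NQO1, a quinone reductase, averaged 892 ± 13.5 CPM in PC9 and 272 ± 11.2 CPM in H1650, and TXNRD1, thioredoxin reductase, averaged 1473 ± 35.4 CPM in PC9 and 479 ± 11.1 CPM in H1650. In both genes the lowest PC9 library was above the highest H1650 library. GPX2, an epithelial glutathione peroxidase, averaged 81.7 ± 5.18 CPM in PC9 and 0.321 ± 0.13 CPM in H1650. GCLM, which helps make glutathione, averaged 165 ± 4.45 CPM in PC9 and 36.8 ± 0.244 CPM in H1650. SLC7A11, the importer of cystine, averaged 129 ± 2.67 CPM in PC9 and 38.5 ± 2.29 CPM in H1650. The member lower in PC9 was HMOX1, heme oxygenase, at 5.02 ± 0.774 CPM in PC9 and 24.6 ± 1.4 CPM in H1650. Neither transcript of the regulator passed the fold limit. NFE2L2, which encodes NRF2, averaged 79.6 ± 4.21 CPM in PC9 and 109.9 ± 3.09 CPM in H1650 and KEAP1 averaged 169.6 ± 4.39 CPM in PC9 and 125 ± 2.32 CPM in H1650.

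**Figure D2:**
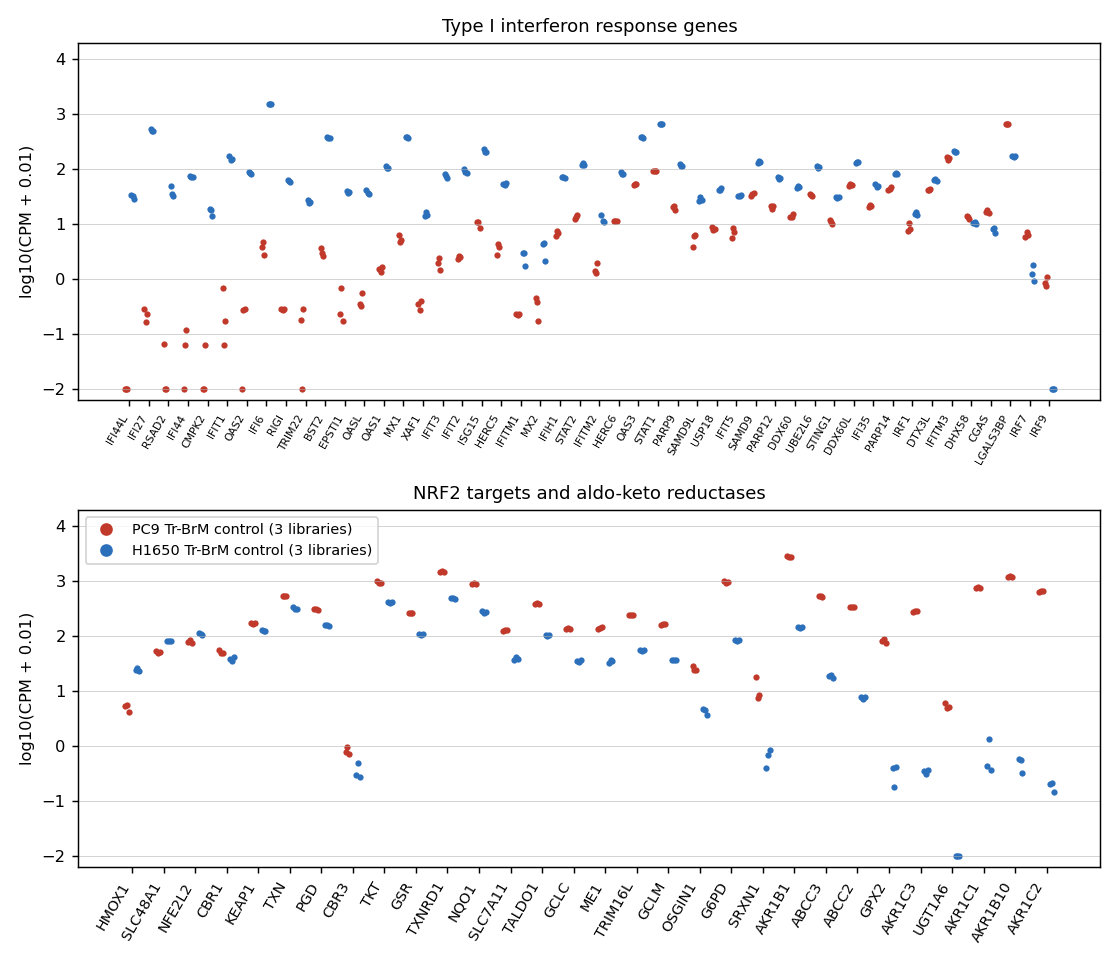
Level of each tested gene of the type I interferon list and of the NRF2 list in every Tr-BrM control library, as log10(CPM + 0.01), with PC9 and H1650 as 3 points each per gene. The interferon genes lie mostly lower in PC9 (39 of 48 called lower) and the genes of the NRF2 list mostly higher (23 of 30 called higher).

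Other genes of drug and xenobiotic metabolism differed in both directions. Of 37 tested, 20 were higher in PC9 and 10 lower, and the median log2 fold change was 1.51. CES1, a carboxylesterase that hydrolyses esters and prodrugs, had 1106, 1076 and 1076 CPM in PC9 and 0.337, 0.341 and 0.0902 CPM in H1650. In BrM control it averaged 0.259 CPM in PC9 and 0.184 CPM in H1650, and in the S100A9-inh libraries 199 CPM in PC9 and 0.235 CPM in H1650. GSTP1, a glutathione transferase of most epithelial cells, averaged 869 ± 39.4 CPM in PC9 and 8.89 ± 0.995 CPM in H1650. The efflux pump ABCC2 averaged 337 ± 2.66 CPM in PC9 and 7.51 ± 0.394 CPM in H1650, and its relative ABCC3 averaged 525 ± 10.8 CPM in PC9 and 18.4 ± 1.17 CPM in H1650. Among the genes lower in PC9, CYP1A1, induced through the aryl hydrocarbon receptor, averaged 0.142 ± 0.15 CPM in PC9 and 101 ± 2.52 CPM in H1650, and CYP1B1 of the same pathway averaged 39.2 ± 1.43 CPM in PC9 and 162 ± 6.5 CPM in H1650.

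The series title names S100A9, whose transcript was higher in PC9 in the Tr-BrM state. S100A9 had 799, 799 and 817 CPM in PC9 and 311, 273 and 271 CPM in H1650. Each PC9 library was above each H1650 library, and the log2 fold change was 1.498 ± 0.05 (edgeR adjusted p = 2.02e-28). In BrM control libraries it averaged 131 CPM in PC9 and 192 CPM in H1650 and was not called, and the difference between the lines differed between the states by 2.05 ± 0.07 on the log2 scale (edgeR adjusted p = 2.08e-26). Its partner S100A8 had 33.8, 36.7 and 33.8 CPM in PC9 and 113, 105 and 95 CPM in H1650, and every PC9 library lay below every H1650 library. In BrM control S100A8 averaged 0.227 CPM in PC9 and 22.8 CPM in H1650. The 2 subunits of calprotectin thus differed between the lines in opposite directions in the Tr-BrM state.

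Calprotectin, its receptors and their adapters were split. Of 12 tested genes in the list, which counts S100A9 and S100A8, 3 were higher in PC9 and 6 lower. AGER, the receptor for advanced glycation end products, averaged 2.3 ± 0.0779 CPM in PC9 and 22.7 ± 1.19 CPM in H1650. TLR4 averaged 0.294 ± 0.195 CPM in PC9 and 0.96 ± 0.0465 CPM in H1650, near the lower end of detection in both lines. The adhesion molecules ALCAM and MCAM, which have also been described as receptors, were higher in PC9, ALCAM at 67.1 ± 3.32 CPM in PC9 and 8.97 ± 0.521 CPM in H1650 and MCAM at 86.5 ± 1.88 CPM in PC9 and 10.8 ± 0.586 CPM in H1650. BSG averaged 709 ± 36.9 CPM in PC9 and 357 ± 1.02 CPM in H1650, a difference just under the fold limit that passed it in some fits with a library left out. Among 15 other S100 genes tested, 2 were higher in PC9 and 6 lower. S100P, a secreted ligand of AGER, averaged 210.3 ± 15.7 CPM in PC9 and 3.72 ± 0.601 CPM in H1650, and S100A10, the annexin A2 partner, averaged 316 ± 17.7 CPM in PC9 and 984 ± 26.3 CPM in H1650.

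ALDH1A1 and ALDH1A3, which make retinoic acid, were higher in PC9, and other retinoid genes were split. ALDH1A1, a retinaldehyde dehydrogenase, had 116, 123 and 121 CPM in PC9 and 3.52, 3.65 and 3.43 CPM in H1650. No libraries overlapped, and the log2 fold change was 5.08 ± 0.08 (edgeR adjusted p = 2.16e-38). ALDH1A3, of the same function, had 97.5, 94.1 and 93.7 CPM in PC9 and 9.29, 11.3 and 11.8 CPM in H1650, with a log2 fold change of 3.13 ± 0.07. STRA6, which takes retinol into the cell, averaged 92 ± 2.74 CPM in PC9 and 0.907 ± 0.0766 CPM in H1650, RARA, a retinoic acid receptor, averaged 33.1 ± 3.21 CPM in PC9 and 10.1 ± 0.837 CPM in H1650, and TGM2, a transglutaminase induced by retinoic acid, averaged 914 ± 26.6 CPM in PC9 and 265 ± 0.435 CPM in H1650. DHRS9, which oxidises retinol, averaged 2.07 ± 0.944 CPM in PC9 and 16.5 ± 0.725 CPM in H1650 and was lower in PC9. CRABP2, a carrier of retinoic acid, averaged 257 ± 2.46 CPM in PC9 and 277 ± 9.56 CPM in H1650 and was not called. In all 7 of 24 tested genes were higher and 6 lower, and the small positive median of 0.18 changed sign under scaling by library size alone.

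EGFR, the driver of these lines, was higher in PC9. EGFR had 1485, 1510.0 and 1521 CPM in PC9 and 325, 339 and 352 CPM in H1650, and no libraries overlapped, for a log2 fold change of 2.15 ± 0.03 (edgeR adjusted p = 3.96e-39). In BrM control it averaged 1051 CPM in PC9 and 436 CPM in H1650, and the difference between the states, 0.88 ± 0.05, did not reach the fold limit of the interaction test. ERBB2 averaged 109 ± 5.2 CPM in PC9 and 212 ± 2.69 CPM in H1650 and was not called, although it passed as lower in PC9 under library size alone and upper quartile scaling. ERBB4, a receptor for neuregulins, averaged 0.0351 ± 0.0608 CPM in PC9 and 4.4 ± 0.72 CPM in H1650. SOCS2, a brake on receptor signalling, averaged 10.3 ± 1.21 CPM in PC9 and 4.31 ± 0.465 CPM in H1650. LRIG2 averaged 41.5 ± 1.43 CPM in PC9 and 18.9 ± 1.83 CPM in H1650, a call lost under library size alone.

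None of 10 tested EGF family ligands was higher in PC9 and 5 were lower. EPGN, which activates EGFR, had 1.01, 0.527 and 0.55 CPM in PC9 and 114, 112 and 111 CPM in H1650, and no PC9 library came near H1650. Its log2 fold change was -7.33 ± 0.11. BTC, another EGFR ligand, averaged 2.68 ± 0.407 CPM in PC9 and 28.1 ± 2.13 CPM in H1650, and AREG averaged 9.84 ± 0.995 CPM in PC9 and 27.3 ± 1.92 CPM in H1650. HBEGF averaged 11.4 ± 0.373 CPM in PC9 and 16.4 ± 1.6 CPM in H1650 and was not called.

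Receptor kinases that can stand in for EGFR, with their ligands, formed another group with more genes lower in PC9, 13 of 26 tested, and 5 higher. FGFR2, a fibroblast growth factor receptor, had 0.0176 CPM in PC9 and 191 CPM in H1650, from 1 count in PC9, a ratio of 10487-fold (95% counting interval 1882 to 414241) lower in PC9. KIT and the ligand FGF2 had no count in PC9, and 27.6 ± 1.45 CPM for KIT and 19.6 ± 1.15 CPM for FGF2 in H1650. MERTK, which clears dying cells and signals survival, averaged 1.13 ± 0.118 CPM in PC9 and 28.1 ± 0.384 CPM in H1650, and its ligand PROS1 averaged 0.418 ± 0.0789 CPM in PC9 and 22.9 ± 0.903 CPM in H1650. AXL, a kinase tied to drug tolerance, averaged 9.07 ± 0.71 CPM in PC9 and 33.2 ± 1.04 CPM in H1650. MET, whose amplification bypasses EGFR, averaged 128 ± 4.16 CPM in PC9 and 237 ± 4.57 CPM in H1650 and was not called, though it was called lower in PC9 under library size alone. INSR and IGF2R were higher in PC9, INSR at 14.4 ± 1.23 CPM in PC9 and 3.83 ± 0.173 CPM in H1650 and IGF2R at 358 ± 6.41 CPM in PC9 and 145 ± 2.15 CPM in H1650. The negative median of this list became positive among genes of the same version. It also did so among genes with a mean of 5 CPM or more in at least 1 group of each line, which leaves out genes low in all groups of 1 line.

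Readouts of MAPK signalling were more often higher in PC9, in 10 of 21 tested genes, with 3 lower. DUSP4, a phosphatase that feeds back on ERK, had 282, 288 and 289 CPM in PC9 and 21.6, 22.4 and 21.8 CPM in H1650, and its lowest PC9 library was far above its highest H1650 library. FOSL1, an AP-1 subunit induced by ERK, averaged 85.6 ± 5.69 CPM in PC9 and 5.7 ± 0.801 CPM in H1650. The ETS factor ETV4 averaged 78.8 ± 3.08 CPM in PC9 and 12.7 ± 0.708 CPM in H1650, and ETV5 averaged 47.7 ± 0.998 CPM in PC9 and 9.41 ± 0.687 CPM in H1650. CCND1, cyclin D1, averaged 861 ± 9.18 CPM in PC9 and 337 ± 8.98 CPM in H1650. Against these, ETV1 averaged 0.089 ± 0.109 CPM in PC9 and 5.75 ± 0.575 CPM in H1650 and was lower in PC9. The direction of the median, 0.80, was the same under each scaling tried.

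Of 23 tested genes of the PI3K pathway, 5 were higher in PC9 and 4 lower. PIK3R1, the regulatory subunit that restrains PI3K, had 1.69, 2.11 and 1.21 CPM in PC9 and 36.7, 38.9 and 35.9 CPM in H1650, lower in each PC9 library.

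A run of neighbouring genes on chromosome 9 was near 0 in H1650. CDKN2A, which encodes the p16 and ARF suppressors, had 105, 92.9 and 101 CPM in PC9 and 1.83, 2.73 and 2.84 CPM in H1650. CDKN2B, which encodes p15, averaged 40.2 ± 3.21 CPM in PC9 and 0.54 ± 0.164 CPM in H1650, and MTAP, an enzyme of methionine salvage, averaged 27.3 ± 2.02 CPM in PC9 and 0.461 ± 0.2 CPM in H1650. The pattern held in BrM control, where CDKN2A averaged 175 CPM in PC9 and 0.361 CPM in H1650 and MTAP averaged 23.8 CPM in PC9 and 0.282 CPM in H1650.

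CDKN1A, the p21 cell-cycle inhibitor, had 24.2, 20.7 and 21.7 CPM in PC9 and 477, 471 and 453 CPM in H1650, a log2 fold change of -4.40 ± 0.05, with no overlap. MDM2, a ubiquitin ligase, averaged 27.8 ± 0.734 CPM in PC9 and 65.2 ± 2.77 CPM in H1650. PLK3, a polo-like kinase, averaged 22.3 ± 0.494 CPM in PC9 and 3.97 ± 0.158 CPM in H1650 and was higher in PC9. Among the MYC family, MYC averaged 258 ± 3.93 CPM in PC9 and 45.7 ± 3.78 CPM in H1650, MYCL averaged 2.11 ± 0.222 CPM in PC9 and 49.9 ± 1.15 CPM in H1650, and MYCN had no count in PC9 and 8.75 ± 0.729 CPM in H1650. SOX2, a lineage factor of squamous and neural cells, likewise had no count in PC9 and 12.3 ± 0.54 CPM in H1650.

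Few genes of mitosis were called. Of 38 tested genes of G2/M and mitosis, 3 were higher in PC9 and 1 was lower. HMMR averaged 106 ± 3.04 CPM in PC9 and 19.3 ± 1.22 CPM in H1650, CDK1 averaged 195 ± 10.7 CPM in PC9 and 64.4 ± 1.63 CPM in H1650, and AURKA, the mitotic kinase, averaged 176 ± 7.02 CPM in PC9 and 436 ± 12.8 CPM in H1650 and was the one lower in PC9. Of 44 genes of DNA replication, 10 were higher, or 22.7%, near the 21% of all tested genes, and 1 was lower, with a median of 0.56. MCM2 of the replicative helicase averaged 287 ± 10.6 CPM in PC9 and 108 ± 3.1 CPM in H1650, PCNA averaged 482 ± 1.56 CPM in PC9 and 199 ± 4.3 CPM in H1650, and E2F1 averaged 110.3 ± 1.79 CPM in PC9 and 230.1 ± 4.7 CPM in H1650 and was lower. In BrM control 2 replication genes were higher in PC9 and 3 lower.

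Keratins were abundant in both lines, at different levels. Of 8 tested simple epithelial keratins, 7 were higher in PC9 and 1 lower, with a median of 1.67. KRT8 had 11975, 11903 and 11817 CPM in PC9 and 4221, 4018 and 3995 CPM in H1650, each PC9 library above each H1650 library. KRT18, its partner, averaged 3828 ± 103 CPM in PC9 and 1107 ± 46.8 CPM in H1650, KRT19 averaged 2799.6 ± 88.5 CPM in PC9 and 1120.5 ± 25.6 CPM in H1650, and KRT23 averaged 173 ± 1.93 CPM in PC9 and 0.316 ± 0.0395 CPM in H1650. The call for KRT7, at 2572 ± 82.9 CPM in PC9 and 1145 ± 29.7 CPM in H1650, was lost under library size alone. KRT80 averaged 231 ± 3.31 CPM in PC9 and 514 ± 7.46 CPM in H1650 and was lower in PC9.

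Genes of squamous and basal cells were more often lower in PC9, 18 of 32 tested, and 4 higher. KRT17, a keratin of basal and wounded epithelium, had 42.6, 38.8 and 41 CPM in PC9 and 1367, 1347 and 1313 CPM in H1650, and the log2 fold change was -5.04 ± 0.05. IVL, the cornified envelope protein involucrin, averaged 5.29 ± 0.406 CPM in PC9 and 176 ± 7.8 CPM in H1650. SPRR3, another envelope precursor, averaged 0.674 ± 0.0122 CPM in PC9 and 193 ± 5.67 CPM in H1650. TP63, the basal lineage factor, was low in both lines at 1.91 ± 0.21 CPM in PC9 and 5.16 ± 0.993 CPM in H1650. KRT6A and KRT6B went in opposite directions, KRT6A at 82.9 ± 3.75 CPM in PC9 and 369 ± 9.84 CPM in H1650 and KRT6B at 156 ± 3.29 CPM in PC9 and 9.1 ± 3.14 CPM in H1650, and as near-identical copies their split is uncertain.

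Airway secretory, ciliated and mucin genes were higher in PC9 in 9 of 16 tested and lower in 2. MUC5B, a gel-forming airway mucin, had 133, 114 and 116 CPM in PC9 and 0.193, 0 and 0 CPM in H1650, so that H1650 lay near 0. MUC16, a membrane mucin that binds mesothelin, averaged 427 ± 18.1 CPM in PC9 and 52.2 ± 3.35 CPM in H1650. MSLN, mesothelin, averaged 138 ± 4.01 CPM in PC9 and 5.04 ± 0.769 CPM in H1650, and SPDEF, a factor of secretory differentiation, averaged 13 ± 0.263 CPM in PC9 and 0.0585 ± 0.0332 CPM in H1650. MUC4 and MUC20, neighbours on chromosome 3, were off in the H1650 table. The list median of 3.90 fell to near 0 when only genes with a mean of 5 CPM or more in at least 1 group of each line were kept. That setting drops genes that are low in all groups of 1 line. Of 24 tested genes of epithelial transcription factors and splicing, 3 were higher in PC9 and 6 lower, with a median of -0.44. Against that direction, EHF, an epithelial ETS factor, averaged 103 ± 5.12 CPM in PC9 and 1.09 ± 0.22 CPM in H1650, and FOXA1 averaged 52 ± 2.84 CPM in PC9 and 1.95 ± 0.354 CPM in H1650, both higher in PC9.

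Adhesion junctions had 14 of 31 tested genes lower in PC9 and 5 higher. CDH1, E-cadherin, had 351, 339 and 345 CPM in PC9 and 835, 875 and 880.5 CPM in H1650, lower in every PC9 library, with a log2 fold change of -1.32 ± 0.03. The desmosomal cadherin DSC3 averaged 0.055 CPM in PC9 and 72.7 CPM in H1650, from 3 counts in PC9, and PKP1, a desmosomal plaque protein, averaged 0.0551 CPM in PC9 and 42.7 CPM in H1650, also from 3 counts. DSG3 had no count in PC9 and 20.3 ± 0.826 CPM in H1650. CTNND1, which stabilises cadherins, averaged 7.59 ± 0.0546 CPM in PC9 and 894 ± 7.28 CPM in H1650, and in BrM control 9.52 CPM in PC9 and 931 CPM in H1650, and its span overlaps another gene on the same strand. CLDN3, a tight junction claudin, averaged 84 ± 4.23 CPM in PC9 and 2.92 ± 0.321 CPM in H1650 and was higher in PC9.

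Mesenchymal genes were called lower in PC9 in 23 of 34 tested and higher in 6, with a median log2 fold change of -2.48. FN1, fibronectin, had 488, 476 and 495 CPM in PC9 and 2699, 2711 and 2829 CPM in H1650, and each PC9 library was below each H1650 library. MYL9, a myosin light chain of contractile cells, averaged 4.35 ± 0.851 CPM in PC9 and 552 ± 19.7 CPM in H1650, and SPARC, a matrix glycoprotein, averaged 0.311 ± 0.0903 CPM in PC9 and 40.2 ± 1.76 CPM in H1650. VIM, vimentin, was low in both lines at 1.19 ± 0.349 CPM in PC9 and 18.8 ± 1.4 CPM in H1650. CDH2, N-cadherin, had no count in PC9 and 2.96 ± 0.487 CPM in H1650, and ZEB1 averaged 0.0722 ± 0.0287 CPM in PC9 and 2.17 ± 0.401 CPM in H1650. E-cadherin and most of the mesenchymal genes were thus lower in the same line. Against this direction, CD44, the hyaluronan receptor, had 2295, 2275 and 2272 CPM in PC9 and 14.1, 13.3 and 15.2 CPM in H1650, and NT5E, the ectoenzyme CD73, averaged 194 ± 6.03 CPM in PC9 and 18.4 ± 0.342 CPM in H1650. The sums of fibroblast and pericyte markers were also lower in PC9, at 17.3 to 20.5 CPM in PC9 and 158 to 179 CPM in H1650. In BrM control these sums lay closer, at 30.8 to 31.8 CPM in PC9 and 38.1 to 40.8 CPM in H1650. There 21 mesenchymal genes were lower in PC9 and 7 higher, against 24.3% and 21% of all tested genes, with a median of -2.30. The part of fibroblasts and pericytes in this list was not tested.

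Integrins, the receptors for the extracellular matrix, and laminins, which are matrix proteins they bind, were together lower in PC9 in 15 of 30 tested genes and higher in 6. ITGB1, the shared beta chain of most matrix integrins, had 435, 457 and 452 CPM in PC9 and 2189, 2169.7 and 2182 CPM in H1650, with a log2 fold change of -2.28 ± 0.03. ITGA6, a laminin receptor chain, averaged 160.0 ± 2.7 CPM in PC9 and 1079.6 ± 24.8 CPM in H1650. ITGA4, a chain that pairs with ITGB1 to bind VCAM1 and fibronectin, averaged 0.0351 CPM in PC9 and 122 CPM in H1650, from 2 counts in PC9. ITGA2 and ITGB5 were higher in PC9, ITGA2 at 548 ± 26.1 CPM in PC9 and 136 ± 6.53 CPM in H1650 and ITGB5 at 555 ± 12.2 CPM in PC9 and 100.2 ± 1.22 CPM in H1650. The laminin chain LAMA4 averaged 62.7 ± 3.55 CPM in PC9 and 3.3 ± 0.736 CPM in H1650. Of 27 collagens, 8 were higher in PC9 and 13 lower. COL17A1, which anchors hemidesmosomes, averaged 0.819 ± 0.16 CPM in PC9 and 275 ± 2.85 CPM in H1650, and COL7A1, of anchoring fibrils, averaged 137 ± 4.31 CPM in PC9 and 11.5 ± 0.197 CPM in H1650 and was higher.

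Genes tied to brain metastasis in earlier studies were split, 9 of 33 tested being higher in PC9 and 14 lower. L1CAM, which lets tumour cells spread along brain capillaries, had 87.8, 81.2 and 79.4 CPM in PC9 and 11.2, 11.4 and 7.8 CPM in H1650, higher in every PC9 library. LCN2, an iron-binding lipocalin, had 247, 242 and 254 CPM in PC9 and 1.06, 1.06 and 0.677 CPM in H1650, the H1650 libraries all near or under 1 CPM. In BrM control LCN2 averaged 57.5 CPM in PC9 and 23.5 CPM in H1650. C3, the complement component, averaged 95.9 ± 2.99 CPM in PC9 and 2.66 ± 0.356 CPM in H1650. GJA1, connexin 43, which couples tumour cells to astrocytes and is itself an astrocyte marker, had no count in PC9 and 31.9 ± 0.98 CPM in H1650. PTGS2, COX-2, averaged 0.857 ± 0.0589 CPM in PC9 and 21.2 ± 1.19 CPM in H1650, and SPOCK1, a proteoglycan, averaged 13.3 ± 0.793 CPM in PC9 and 131 ± 5.62 CPM in H1650, both lower in PC9.

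Genes of TGF-beta and BMP signalling were split, 12 of 33 tested being higher in PC9 and 9 lower. INHBA, the activin A subunit, had 234, 229.9 and 233 CPM in PC9 and 2.36, 3.34 and 3.52 CPM in H1650, and INHBB of activin B averaged 318 ± 21.6 CPM in PC9 and 8.46 ± 1.2 CPM in H1650. The latent TGF-beta binding protein LTBP2 averaged 168 ± 2.59 CPM in PC9 and 22.4 ± 0.661 CPM in H1650, and LTBP3 averaged 408 ± 18.5 CPM in PC9 and 71.4 ± 5.25 CPM in H1650. BMP4 averaged 39.3 ± 2.64 CPM in PC9 and 1.74 ± 0.0628 CPM in H1650, while BMP7 averaged 13.5 ± 0.421 CPM in PC9 and 345 ± 6.02 CPM in H1650 and was lower in PC9. ID1 and ID2, which BMP signals induce, were lower in PC9, ID1 at 28.4 ± 0.638 CPM in PC9 and 199 ± 28.8 CPM in H1650 and ID2 at 0.55 ± 0.208 CPM in PC9 and 35.2 ± 3.16 CPM in H1650. Of 36 genes of the NF-kappaB list, 10 were higher and 16 lower. TNFAIP2 averaged 628 ± 15.1 CPM in PC9 and 44.4 ± 1.18 CPM in H1650 and LIF averaged 65.4 ± 2.6 CPM in PC9 and 3.52 ± 0.592 CPM in H1650, both higher in PC9, whereas IL6 averaged 0.455 ± 0.23 CPM in PC9 and 15.8 ± 1.07 CPM in H1650 and CCL5 averaged 0.381 ± 0.14 CPM in PC9 and 10.6 ± 0.468 CPM in H1650. Of 19 checkpoint ligands, 5 were higher and 7 lower, and CD274, which encodes PD-L1, averaged 4.52 ± 0.614 CPM in PC9 and 13.3 ± 1.92 CPM in H1650.

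In metabolism, genes of hypoxia and glycolysis were higher in PC9 in 12 of 37 tested and lower in 4, with a median of 0.69. GAPDH had 10176, 9594 and 9749.5 CPM in PC9 and 2527, 2446 and 2516 CPM in H1650, with no overlap, and LDHA, which makes lactate, averaged 2532 ± 40.8 CPM in PC9 and 927 ± 23.8 CPM in H1650. ENO1 averaged 3328 ± 49.3 CPM in PC9 and 2039 ± 27.8 CPM in H1650 and was not called. NDRG1, induced by hypoxia, averaged 40.9 ± 0.879 CPM in PC9 and 236 ± 4.54 CPM in H1650 and was lower. In BrM control 4 genes of the list were higher in PC9 and 11 lower. Of 13 mitochondrially encoded genes, 8 were higher in PC9 and none lower, with MT-CO1 at 21817 ± 209 CPM in PC9 and 6049.7 ± 166 CPM in H1650.

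Cholesterol synthesis and uptake was balanced in the Tr-BrM state and not in BrM. Of 27 tested genes, 7 were higher in PC9 and 7 lower in Tr-BrM control, and in BrM control 16 were higher and 1 lower, with medians of 0.07 in Tr-BrM, a sign that changed under library size alone, and 1.36 in BrM. The interaction test called 16 members more negative in Tr-BrM and none more positive, against 12.4% of all tested genes that were more negative. MVK, mevalonate kinase, averaged 14.3 ± 1.04 CPM in PC9 and 75.1 ± 2.74 CPM in H1650 in Tr-BrM and 57.9 CPM in PC9 and 25 CPM in H1650 in BrM. Of 31 tested genes of fatty acid synthesis and storage, 11 were higher in PC9 and 6 lower, with a median of 0.42. Against that direction, PLIN2, the lipid droplet coat, averaged 0.49 ± 0.0981 CPM in PC9 and 77.3 ± 5.76 CPM in H1650, and FABP5, a fatty acid carrier, averaged 3.19 ± 0.242 CPM in PC9 and 183 ± 12.8 CPM in H1650, both lower in PC9. FASN averaged 1197 ± 65.4 CPM in PC9 and 530.0 ± 12 CPM in H1650, a call lost under library size alone.

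Genes of serine, one-carbon and amino acid metabolism were split evenly, 8 of 31 tested being higher and 8 lower. ASS1, which makes argininosuccinate for arginine synthesis, had 339.6, 334 and 349 CPM in PC9 and 6.21, 6.28 and 7.31 CPM in H1650, higher in each PC9 library. SLC6A14, a broad amino acid importer, averaged 106 ± 0.557 CPM in PC9 and 0.0879 ± 0.0715 CPM in H1650. GLUL, glutamine synthetase, averaged 66.1 ± 2.03 CPM in PC9 and 370.4 ± 6.66 CPM in H1650 and was lower in PC9. BCAT1, a branched-chain aminotransferase, averaged 1.06 ± 0.308 CPM in PC9 and 46.6 ± 1.2 CPM in H1650.

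**Figure D3:**
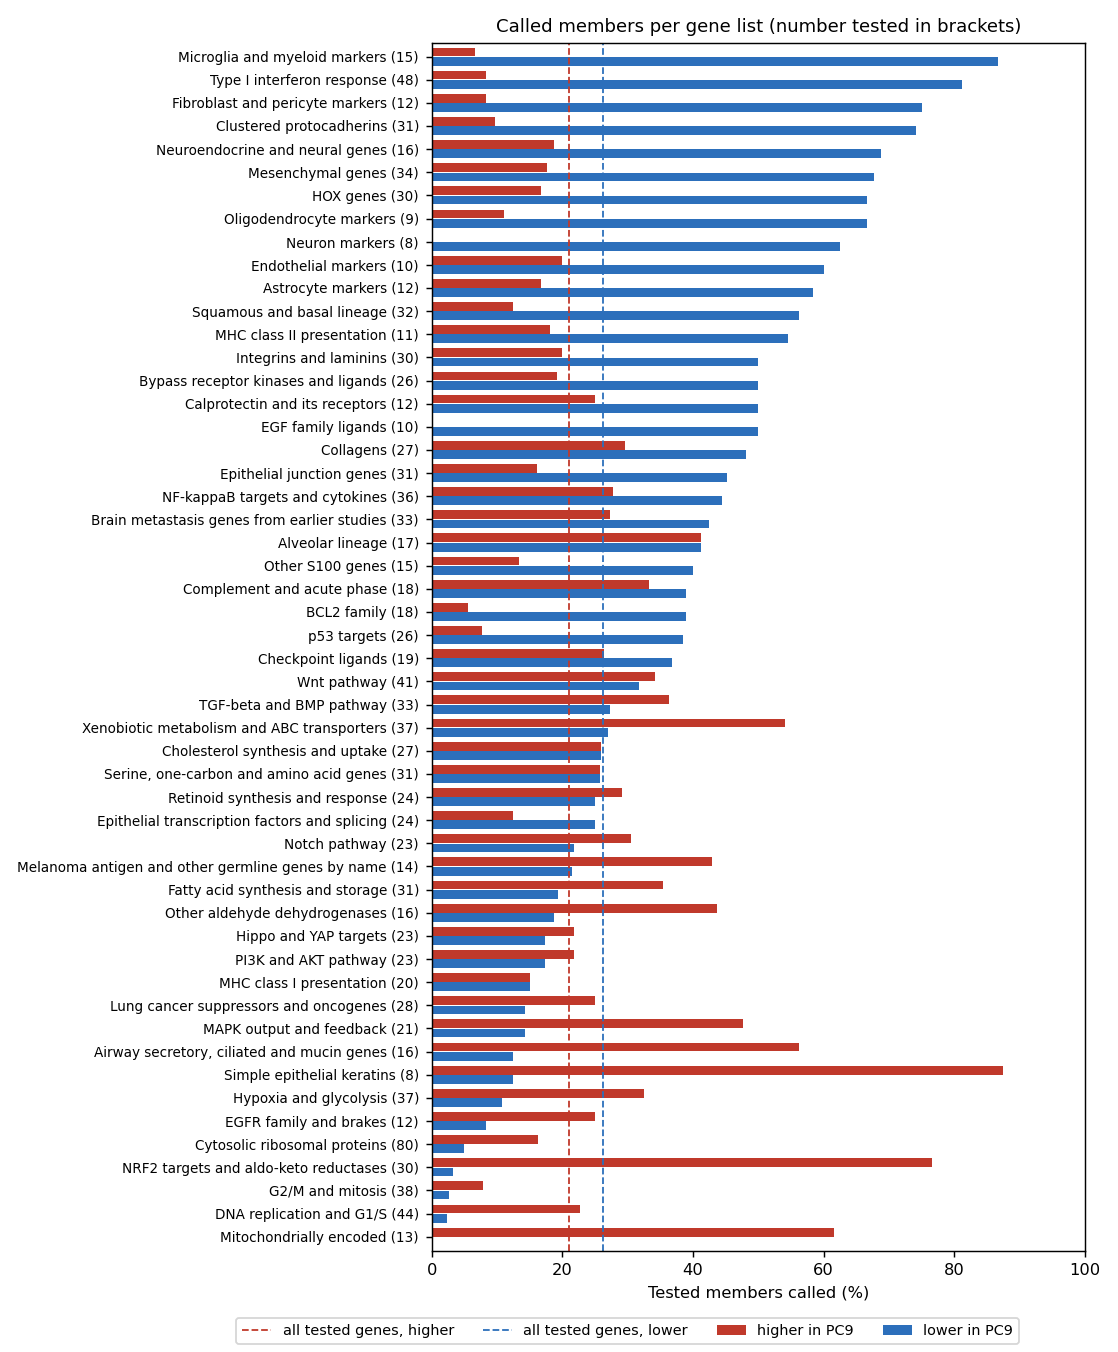
Share of the tested members called higher or lower in PC9 (percent), for each gene list with at least 8 tested members. The number tested is in brackets, and dashed lines mark the shares of all tested genes, 21% higher and 26.3% lower. The NRF2 list and the simple keratins lie highest for members higher in PC9, and the interferon list has 39 of 48 members lower.

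By fitted fold change alone, the ends of the comparison were mostly genes off in a whole table. Of the 12 largest rises, 11 were off in every H1650 library, and of the 12 largest falls, 10 were off in every PC9 library. The rises, in order, were PALM2AKAP2, CYP4F11, DDX39B, SBK2, TAF9, EPOP, NLRP2, HSPA1A, MUC4, ZBTB9, LENG9 and PIGW, and the falls were UBE2M, ADRA2A, SLC27A6, OLFM1, LRP2, MSX2, PNMA8A, CADM1, BGN, GPATCH4, PYURF and DOK5. PALM2AKAP2, an anchor of protein kinase A, had 381 ± 4.28 CPM in PC9 and no count in H1650, at least 9178-fold higher. HSPA1A, a stress-induced chaperone in the MHC stretch with a near-identical copy beside it, averaged 183 CPM in PC9 and 0.0264 CPM in H1650, from 2 counts in H1650. ADRA2A, an adrenergic receptor, had no count in PC9 and 101 ± 6.51 CPM in H1650, at least 1843-fold lower. LRP2, the endocytic receptor megalin, had no count in PC9 Tr-BrM and 63.4 ± 1.15 CPM in H1650, and in H1650 BrM it averaged 0.296 CPM. In all, 135 of 19076 tested genes were at 5 CPM or more in each H1650 Tr-BrM control library with no count in those of PC9. The reverse held for 32 genes. Most were not particular to the Tr-BrM control libraries, since 126 of the 135 and 31 of the 32 were under 0.3 CPM in the line's 6 other libraries.

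A rule added after these values were seen kept genes that reached 5 CPM in at least 1 other group of the line where they were lower. Passing it does not show that a gene was counted alike in both tables. CTNND1, for example, passed it with a wide gap in BrM control as well, as given above. Its 10 largest rises were LCN2, CD44, ADAMTS16, GABRE, GSTP1, MLPH, INHBA, HPDL, CALB2 and SULF2. CALB2, calretinin, averaged 178 ± 6.17 CPM in PC9 and 2.6 ± 0.409 CPM in H1650. SULF2, which trims heparan sulfate, averaged 528 ± 20.5 CPM in PC9 and 8.11 ± 0.641 CPM in H1650, and MLPH, a melanosome and vesicle transport linker, averaged 159.6 ± 5.27 CPM in PC9 and 2 ± 0.436 CPM in H1650. GABRE, a subunit of GABA-A receptors, averaged 145 ± 4.09 CPM in PC9 and 1.39 ± 0.158 CPM in H1650. The 10 largest falls were MYL9, BST2, CTNND1, TPM2, PDGFC, BCAT1, IFIT2, PDGFD, IVL and FAM171B. TPM2, a tropomyosin, averaged 2.61 ± 0.432 CPM in PC9 and 205 ± 7.2 CPM in H1650. PDGFC and PDGFD, ligands of platelet-derived growth factor receptors, were among them, PDGFC at 1.69 ± 0.464 CPM in PC9 and 98.8 ± 2.56 CPM in H1650 and PDGFD at 1.07 ± 0.0765 CPM in PC9 and 37.8 ± 2.06 CPM in H1650.

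Most of the differences were shared with the other states of the same lines. Of the 4009 genes higher in PC9 in Tr-BrM control, 2681 were also higher in BrM control, or 66.9% of these and 67.1% of the genes higher in BrM, and 89 were lower there. In the S100A9-inh libraries 3302 were higher, or 82.4% of these and 78.9% of the genes higher there. Of the 5015 lower genes, 3373 were lower in BrM control, or 67.3% of these and 72.8% of the genes lower in BrM, and 178 were higher there. In the S100A9-inh libraries 4028 were lower, or 80.3% of these and 82.7% of the genes lower there. In BrM control 21% of tested genes were higher in PC9 and 24.3% lower, and in the S100A9-inh libraries 21.9% and 25.5%. The interaction test, the difference between the lines in Tr-BrM minus that in BrM, called 1862 genes more positive, or 9.76%, and 2364 more negative, or 12.4%. Against the S100A9-inh libraries the same kind of test called 673 genes more positive, or 3.53%, and 1054 more negative, or 5.53%.

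**Figure D4:**
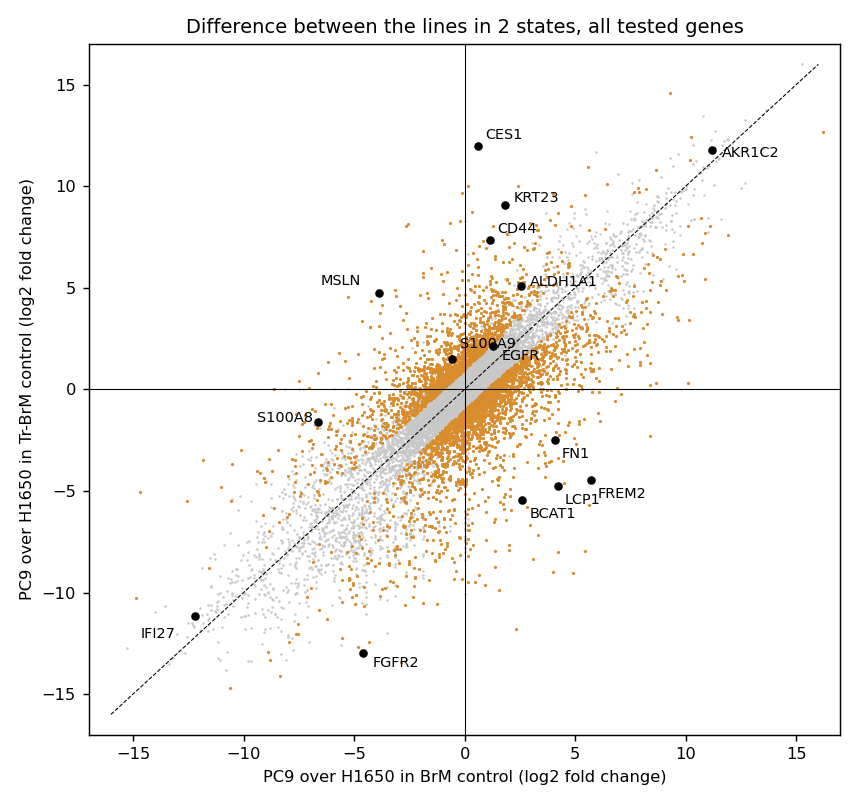
Log2 fold change of PC9 over H1650 for every tested gene in BrM control (horizontal) and in Tr-BrM control (vertical), with the genes called by the interaction test in colour. Most genes lie along the diagonal, 66.9% of those higher in Tr-BrM being higher in BrM, and 89 higher and 178 lower genes were called in the opposite direction.

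Some of the genes with the smallest interaction p changed their order between the lines with the state. MSLN averaged 138 ± 4.01 CPM in PC9 and 5.04 ± 0.769 CPM in H1650 in Tr-BrM and 9.93 CPM in PC9 and 146 CPM in H1650 in BrM. CD44 was higher in PC9 in both states, with 2280.5 CPM in PC9 and 14.2 CPM in H1650 in Tr-BrM and 1459 CPM in PC9 and 654 CPM in H1650 in BrM. MSN, moesin, which links CD44 to actin, followed, with 2814 CPM in PC9 and 75.9 CPM in H1650 in Tr-BrM and 1373 CPM in PC9 and 614 CPM in H1650 in BrM. TIMP3, a matrix metalloproteinase inhibitor, averaged 133 CPM in PC9 and 23.1 CPM in H1650 in Tr-BrM and 40.3 CPM in PC9 and 199.7 CPM in H1650 in BrM. PI3, the elastase inhibitor elafin, averaged 535 CPM in PC9 and 19.6 CPM in H1650 in Tr-BrM and 18.8 CPM in PC9 and 60.5 CPM in H1650 in BrM. In TIMP3, PI3 and MSLN the line with the higher level was PC9 in Tr-BrM and H1650 in BrM.

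The reverse exchange was seen in FN1, with 486 CPM in PC9 and 2746 CPM in H1650 in Tr-BrM and 12928 CPM in PC9 and 764 CPM in H1650 in BrM. LCP1, the actin bundler of leukocytes and some tumours, averaged 0.86 CPM in PC9 and 23 CPM in H1650 in Tr-BrM and 111 CPM in PC9 and 6.04 CPM in H1650 in BrM. SRC, a tyrosine kinase, averaged 71.2 CPM in PC9 and 222 CPM in H1650 in Tr-BrM and 139 CPM in PC9 and 54.7 CPM in H1650 in BrM. AMOT, which holds YAP at junctions, averaged 64.6 CPM in PC9 and 137 CPM in H1650 in Tr-BrM and 63.2 CPM in PC9 and 7.28 CPM in H1650 in BrM. In FN1, LCP1, SRC and AMOT the line with the higher level was H1650 in Tr-BrM and PC9 in BrM. The S100A9-inh libraries kept the Tr-BrM order for FN1, at 248 CPM in PC9 and 3511 CPM in H1650, and for MSLN, at 47.3 CPM in PC9 and 4.21 CPM in H1650.

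**Figure D5:**
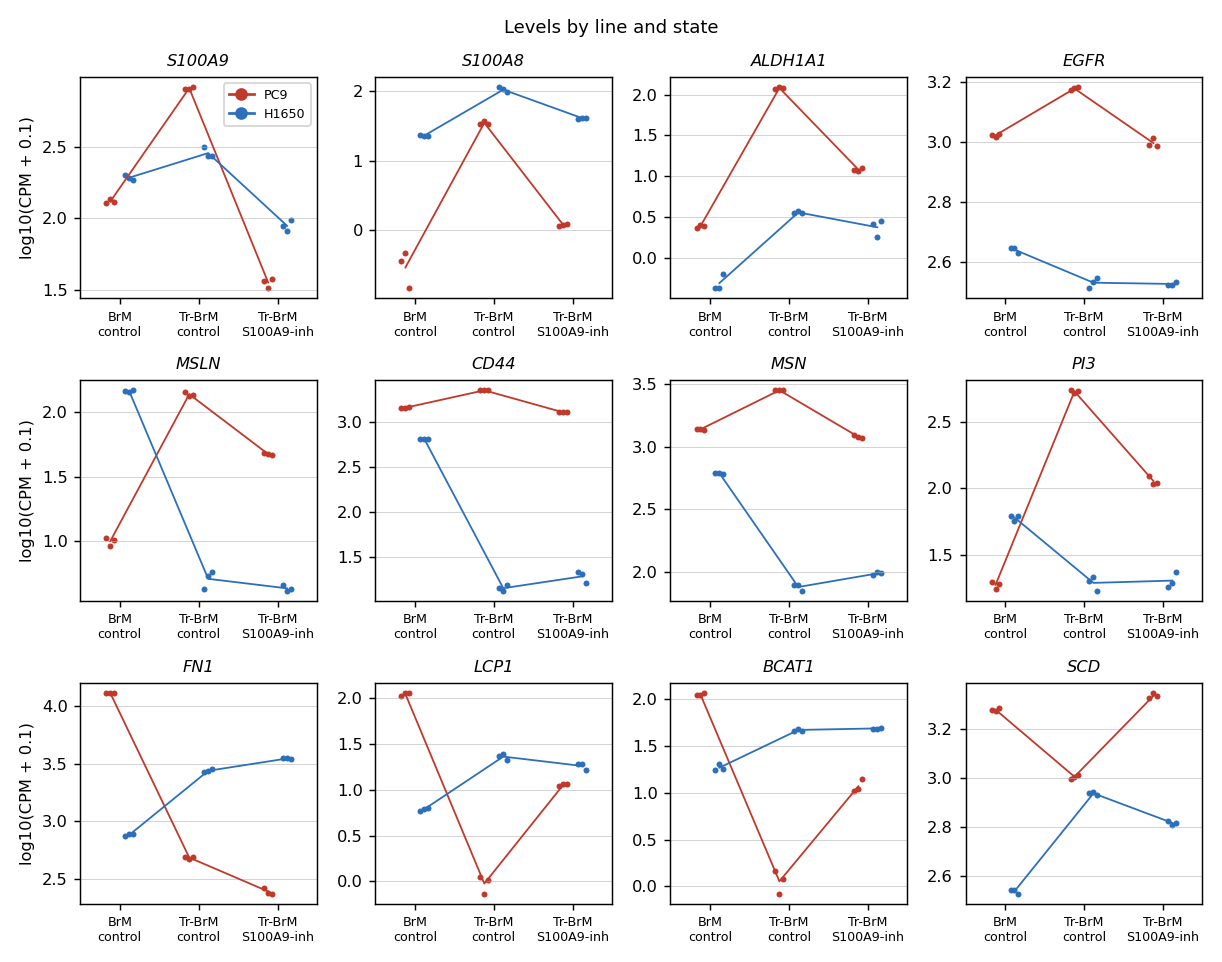
Levels of genes by line and state as log10(CPM + 0.1), with 1 point per library and lines through the means of PC9 and H1650. The lines cross between BrM control and Tr-BrM control for FN1 and MSLN, and EGFR stays higher in PC9 in each state.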

How the data were processed

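The authors deposited 1 table of raw counts per gene for each line, in whole numbers without normalization. STAR, R 4.0.1 and DESeq2 1.28.1 were used on GRCh38, per the submitters' processing notes. No source used here gives the counting tool, the annotation release or the use of strand, so overlapping genes and near-identical copies are uncertain. The tables, of 60603 and 60649 rows, were joined on Ensembl identifiers without version, giving 60399 genes, 52503 of them of the same version.

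All 18 libraries were fitted in 1 edgeR 4.0.16 model with 6 groups (R 4.3.3, TMM, filterByExpr, quasi-likelihood test, Benjamini-Hochberg adjustment over 19076 genes). The standard error (SE), given after a log2 fold change as ±, is its size over the square root of F. DESeq2 1.42.0 and limma 3.58.1 served alternatives. None of 18 replicate pairs was identical, and 1 library, PC9 S100A9-inh replicate 1, stood apart. The common biological coefficient of variation was 0.0385, so small differences pass. Counts that are few give wide errors, and intervals and floors (3 counts over a group) cover counting error only, at 95%.

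The genes named are S100A9, S100A8, ALDH1A1, ALDH1A3, EGFR, the 12 largest rises and falls, the 8 smallest interaction p of each sign, up to 6 uncounted genes per line, all at 20 CPM or more where higher, and up to 4 called members per list with those it is known for. Some such genes are not reported here. The members, lists and rules were chosen with earlier results of these data known. The rule on genes that reached 5 CPM in another group of the lower line was added after the values were seen. So were the alternatives on whole-table genes, on genes at 5 CPM or more in each line, on chromosome 6 and on the library apart. Alternatives covered scaling, filters, DESeq2, same-version genes, a fit of 6 libraries, thresholds and each of the 6 Tr-BrM control libraries left out, while BrM control libraries were not left out.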

Additional observations from a re-analysis of the deposited data

Results flagged for a closer look

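The interaction test took PC9 minus H1650 in Tr-BrM control minus the same difference in BrM control. It called 20 of the genes looked at by rule (edgeR, on the log2 scale, with adjusted p under 0.05 and a size of at least 1). The 8 genes of each sign given first were chosen for the smallest interaction p, so their call was fixed by that choice. Of all tested genes, 9.76% were called more positive and 12.4% more negative. Positive values were 8.64 for MSLN, 6.18 for CD44, 4.05 for MSN, 4.82 for TIMP3, 6.45 for PI3, 3.37 for COTL1, 5.38 for ASS1 and 3.77 for KLK5. KLK5, a skin protease, averaged 594 CPM in PC9 and 112 CPM in H1650 in Tr-BrM and 244 CPM in PC9 and 624 CPM in H1650 in BrM. COTL1, an actin-binding protein, averaged 407 CPM in PC9 and 58.9 CPM in H1650 in Tr-BrM and 288 CPM in PC9 and 432 CPM in H1650 in BrM.

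Negative values were -6.58 for FN1, -6.19 for LIPG, -8.95 for LCP1, -8.05 for BCAT1, -2.25 for SCD, -10.14 for FREM2, -2.98 for SRC and -4.19 for AMOT. LIPG, endothelial lipase, averaged 69.9 CPM in PC9 and 76.1 CPM in H1650 in Tr-BrM and 276 CPM in PC9 and 4.17 CPM in H1650 in BrM. SCD, which desaturates fatty acids, averaged 1013 CPM in PC9 and 866 CPM in H1650 in Tr-BrM and 1908 CPM in PC9 and 343 CPM in H1650 in BrM. FREM2, a basement membrane protein, averaged 2.11 CPM in PC9 and 45.9 CPM in H1650 in Tr-BrM and 15.3 CPM in PC9 and 0.287 CPM in H1650 in BrM. BCAT1 averaged 1.06 CPM in PC9 and 46.6 CPM in H1650 in Tr-BrM and 111 CPM in PC9 and 18.4 CPM in H1650 in BrM.

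Among the genes the series is about, the values were 2.05 for S100A9, 5.05 for S100A8, 2.52 for ALDH1A1 and 2.27 for ALDH1A3. S100A8 in PC9 BrM rested on 13 counts over the 3 libraries. ALDH1A1 averaged 120.1 CPM in PC9 and 3.53 CPM in H1650 in Tr-BrM and 2.36 CPM in PC9 and 0.407 CPM in H1650 in BrM, and ALDH1A3 averaged 95.1 CPM in PC9 and 10.8 CPM in H1650 in Tr-BrM and 95.4 CPM in PC9 and 52.6 CPM in H1650 in BrM. Groups of 3 libraries are too small for a test of single outlying libraries.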

How the results depend on the processing

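The numbers of genes higher and lower in PC9, 4009 and 5015, stayed within 1.5 times under other scalings, filters, DESeq2, same-version genes, the 6 libraries alone and a test against a fold of 2. They moved to 7411 and 8283 with the adjusted p alone, and to 1892 and 2897 with a log2 fold change of at least 2. Among 10278 genes with a mean of 5 CPM or more in at least 1 group of each line, they moved to 1765 and 1381. More were higher than lower there, at 17.2% and 13.4% of the genes kept, against 21% and 26.3% of all tested genes. That setting tests fewer genes and leaves out those low in all groups of 1 line. It also moved the interaction counts to 890 more positive, or 8.66%, and 923 more negative, or 8.98%. Over all tested genes these shares were 9.76% and 12.4%. Leaving out each of the 6 Tr-BrM control libraries in turn gave 4094 to 4147 higher and 5015 to 5121 lower, and 1837 to 1874 and 2274 to 2378 in the interaction. More genes passed the filter in these fits, 19581 to 19663 against 19076. The shares were 20.8% to 21.1% higher and 25.6% to 26.1% lower.

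Of 5183 comparisons of named genes with an alternative, 5170 kept their direction and side of the threshold, 5 were weaker, 7 stronger and 1 reversed. Many of these genes were chosen for a small p or a large fold change, which favours such agreement. The alternatives on whole-table genes, on genes at 5 CPM or more in each line and on chromosome 6 kept the fold changes of the main fit. So did the test against a fold of 2, and in these the direction could not change. The reversed gene was SCD, -0.038 under library size alone, which was not called. Medians of 23 gene lists changed sign under at least 1 setting, 11 of them under library size alone. No paired analysis was possible because the labels of the 2 lines share no replicate numbers. Depth limits genes of a few counts, and line cannot be told apart from table.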

Other observations

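Further gene groups were compared between PC9 and H1650 in Tr-BrM control. Their counts stand beside 21% of all tested genes higher and 26.3% lower, and some are near or under these shares. Of 41 tested Wnt pathway genes, 14 were higher in PC9 and 13 lower. DKK1, a secreted Wnt antagonist, averaged 157 ± 1.75 CPM in PC9 and 27 ± 1.13 CPM in H1650, and SFRP1, which binds Wnt proteins, averaged 82.2 ± 2.33 CPM in PC9 and 12.3 ± 0.545 CPM in H1650. The co-receptor LRP6 averaged 102 ± 3.01 CPM in PC9 and 22.2 ± 0.643 CPM in H1650, while the receptor FZD6 averaged 69.2 ± 1.51 CPM in PC9 and 177 ± 0.346 CPM in H1650 and was lower in PC9. Of 23 Notch pathway genes, 7 were higher and 5 lower, and the ligand JAG1 averaged 97.8 ± 2.44 CPM in PC9 and 25.3 ± 0.881 CPM in H1650. Of 23 Hippo and YAP genes, 5 were higher and 4 lower, or 21.7% and 17.4%. F3, tissue factor, averaged 424 ± 6.57 CPM in PC9 and 95.1 ± 0.65 CPM in H1650, and TEAD2, a DNA-binding partner of YAP, averaged 41.1 ± 2.11 CPM in PC9 and 4.47 ± 0.15 CPM in H1650. Of 18 BCL2 family genes, 1 was higher and 7 lower, and the lower ones named first by p were BMF, a pro-apoptotic member, at 4.43 ± 0.0769 CPM in PC9 and 25.9 ± 2.11 CPM in H1650 and PMAIP1, another, at 17.8 ± 1.11 CPM in PC9 and 47.9 ± 2.02 CPM in H1650.

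Aldehyde dehydrogenases outside the ALDH1A group were higher in 7 of 16 tested and lower in 3. ALDH3A1, which oxidises aromatic and lipid aldehydes, averaged 32 ± 0.163 CPM in PC9 and 0.493 ± 0.148 CPM in H1650. ALDH1L2, the mitochondrial formyltetrahydrofolate dehydrogenase, averaged 0.145 ± 0.0827 CPM in PC9 and 22.1 ± 0.899 CPM in H1650 and was lower in PC9. Of 17 alveolar lineage genes, 7 were higher and 7 lower, with CEACAM6, a surface glycoprotein, at 94.7 ± 2.58 CPM in PC9 and 0.368 ± 0.251 CPM in H1650 and LAMP3, of lamellar bodies, at 6.47 ± 0.474 CPM in PC9 and 60.8 ± 2 CPM in H1650. Of 18 complement and acute phase genes, 6 were higher and 7 lower, and CFD, complement factor D, averaged 62.7 ± 1.58 CPM in PC9 and 5.47 ± 0.887 CPM in H1650. Of 16 neuroendocrine and neural genes, 3 were higher and 11 lower. UCHL1, a neuronal deubiquitinase, averaged 489 ± 8.58 CPM in PC9 and 15.4 ± 1.87 CPM in H1650, and CHGA, chromogranin A, averaged 0.239 ± 0.184 CPM in PC9 and 7.31 ± 0.491 CPM in H1650.

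Gene families chosen by name are set against the same shares. HOX genes, which encode positional identity, were lower in PC9 in 20 of 30 tested and higher in 5, with HOXC13 at 5.09 ± 0.414 CPM in PC9 and 27.6 ± 1.85 CPM in H1650. Clustered protocadherins, adhesion proteins best known from neurons, were lower in 23 of 31 and higher in 3. Melanoma antigen and other germline genes were higher in 6 of 14 and lower in 3. MAGEA3 averaged 135 ± 1.54 CPM in PC9 and 0.0725 ± 0.0548 CPM in H1650, and MAGEA6, a near-identical copy with which it can share reads, averaged 171 ± 3.6 CPM in PC9 and 0.179 ± 0.0875 CPM in H1650. Of 80 cytosolic ribosomal proteins, 13 were higher in PC9 and 4 lower, or 16.25% and 5%, both under the shares of all tested genes.

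Whole chromosomes differed in how the lines compared in each state, among genes at 5 CPM or more in PC9 and H1650 in both control states. On chromosome 16, 431 such genes had a median log2 fold change, PC9 minus H1650, of 0.55 in Tr-BrM and -0.09 in BrM. The median change of these genes, Tr-BrM minus BrM, was 0.01 within PC9 and -0.60 within H1650. On chromosome 13, 145 genes had a median of 0.03 in Tr-BrM and 0.75 in BrM, with a change of -0.43 within PC9 and 0.22 within H1650. These chromosomes were chosen after the values were seen, and no test was made.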
